A study of Homo sapiens with 6 samples.

Results

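The genes described here are 10 nuclear genes whose proteins fold or degrade proteins inside mitochondria or switch on such genes. They are HSPD1, HSPE1, HSPA9, TRAP1, LONP1, CLPP, CLPX, YME1L1, AFG3L2 and ATF5. They were taken by name from a deposited table of read counts, in which each of the 10 has a row among 39293 gene names, and all 10 were among the 15811 genes with enough counts to be tested. All samples were SW480, an established epithelial line of colorectal cancer origin. Of 6 wells, 3 were exposed over 4 h to dihydroartemisinin (DHA), into which artemisinin drugs against malaria are converted, at 20 µg/mL. The other 3 were exposed over the same 4 h to 0.1% DMSO, the solvent, and serve as controls, while the DMSO content of the DHA wells is unstated in the labels. Poly(A) RNA of each well was sequenced as its own library. No label says that the wells were separate cultures, so p-values measure well-to-well spread only, and that may be technical.

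Most mitochondrial proteins are made in the cytosol, imported unfolded and refolded by chaperones in the matrix, the innermost space of the organelle. Mortalin, the Hsp70 encoded by HSPA9, pulls incoming chains through the import channel, and the barrel of HSPD1 (Hsp60) with its lid HSPE1 (Hsp10) then encloses and folds them. TRAP1 is the mitochondrial Hsp90. Damaged or surplus proteins are cut by ATP-driven proteases: LONP1 and the pair of CLPP, the peptidase, and CLPX, its unfoldase, in the matrix, and YME1L1 and AFG3L2 in the inner membrane, facing opposite sides. When this system is overloaded, cells raise transcripts of chaperones and proteases in the mitochondrial unfolded protein response, which in mammals involves the transcription factor ATF5 and the integrated stress response.

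The libraries held between 14291726 and 18938456 counts. Levels are given as CPM, the reads of a gene scaled by the library total. At these depths 3 counts correspond to 0.158 to 0.210 CPM, for counting error only, and the lowest count of any of the 10 genes in a library was 71. The DHA library of replicate 2 stood apart from the other DHA libraries, with a chi-square per gene of 12.9 and 13.1 against replicates 1 and 3, compared with 1.65 between those, while pairs of control libraries lay between 3.10 and 8.03. Values without it are given where they lose or add a call of a gene named here with its value. Of 8 markers of colorectal epithelium, 6 exceeded a mean of 1 CPM, with KRT8 and KRT18 highest, and VIL1 and CDH17 did not. Their summed level was 3423 to 3776 CPM in the controls and 4304 to 4534 CPM in DHA. The leukocyte marker PTPRC and the fibroblast markers COL1A2 and DCN had 0 counts in every library. Leukocyte markers summed to 2.15 to 3.01 CPM in the controls and 6.62 to 9.52 CPM in DHA. Fibroblast markers, nearly all of it COL1A1, summed to 21.6 to 29.7 and 70.9 to 93.6 CPM. The part of these marker sums in the results was not tested.

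After 4 h of DHA the 10 genes did not move as a block. HSPE1 rose 3.14-fold from a low counted level, LONP1 rose 1.34-fold and HSPD1 rose 1.31-fold. CLPX fell to 0.733 and YME1L1 to 0.797 of the control level. HSPA9, TRAP1, CLPP, AFG3L2 and ATF5 did not pass the test, with log2 fold changes between -0.035 and 0.056. The test was edgeR's quasi-likelihood test, 2-sided, with Benjamini-Hochberg adjustment over all 15811 genes and a threshold of 0.05. Thus 3 of the 10 rose, against 29.6% of all tested genes, and 2 of the 10 fell, against 30.1%. In either direction 5 of 10 were called, against 59.6%, which does not set the 10 apart. In CPM, 5 of the 10 had groups that did not overlap, against 65.5% of tested genes. Of these, 2 lay above the controls, against 27%, and 3 below, against 38.4%. The median log2 fold change was 0.015 for the 10 genes and 0.011 for all tested genes. In these bulk samples, fewer cells of a kind and less RNA per cell cannot be told apart.

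**Figure D1:**
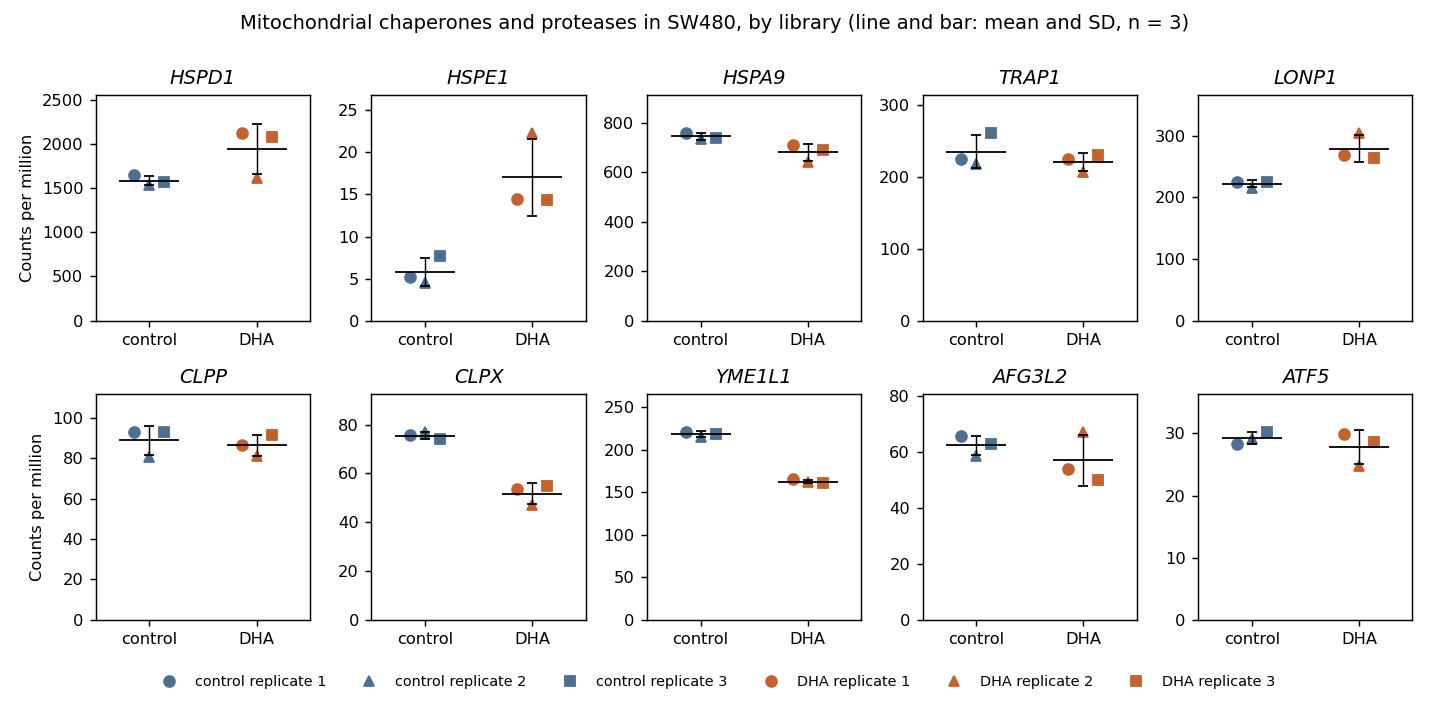
CPM of the 10 genes in each library (vertical axes from 0), with control wells in blue and DHA wells in orange. Points are libraries, marked by replicate, and lines and bars are the mean and SD of 3. YME1L1 and CLPX lie lower in all 3 DHA libraries, LONP1 and HSPE1 higher, and the HSPD1 value of DHA replicate 2 lies among the controls.

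Fold changes ran with the base composition and length of the transcripts. Across all tested genes, the median log2 fold change ran from -0.31 in the fifth of genes with the lowest GC content (up to 41.3%) to 0.40 in the fifth with the highest (at least 58.4%). It ran from 0.32 in the fifth with the shortest exon length to -0.23 in the longest. The 10 genes span this range, from 40.6% GC for YME1L1 and 41.3% for CLPX to 62.9% for LONP1 and 64.3% for CLPP. An offset fitted per library to GC content and length was therefore an alternative for every value. HSPD1, HSPE1 and CLPX kept their calls under it, LONP1 and YME1L1 lost theirs, and HSPA9 gained a call as higher and CLPP and ATF5 as lower. That made 3 of 10 higher, against 23.7% of all tested genes under the offset, and 3 lower, against 32.5%, or 6 in either direction, against 56.3%. Under the offset the median log2 fold change was 0.027 for the 10 genes and -0.074 for all tested genes. Whether the trend with GC content and length arose in the cells or in the libraries was not tested.

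**Figure D2:**
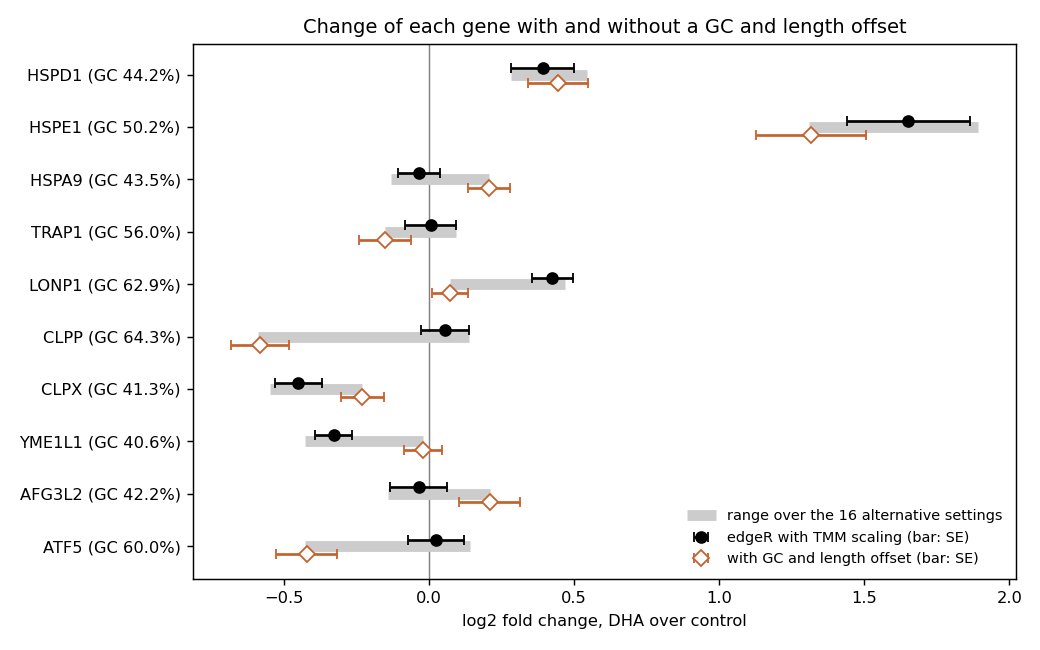
The log2 fold change of DHA over control for each gene (horizontal axis), from the fit with TMM scaling (black, bar SE) and with a GC and length offset (orange diamonds, bar SE). Grey bands span all 16 alternative settings. HSPD1 and HSPE1 lie right of 0 and CLPX left of 0 over the whole band. The bands of LONP1 and YME1L1 also stay right and left of 0. With the offset, however, LONP1 at 0.073 and YME1L1 at -0.020 lie near 0 and lose their calls.

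By the RefSeq starts given below, HSPD1 and HSPE1 lie head to head on chromosome 2 and share their promoter region. In the deposited spans, HSPE1 lies inside HSPD1. In the deposited table, whose coordinates are those of GENCODE 29 (GRCh38) for 96.9% of matched genes, though not for the ends of HSPA9 and CLPP, HSPD1 spans 197486581 to 197516737 on the minus strand and HSPE1 spans 197499994 to 197503457 on the plus strand. RefSeq (GRCh38.p14) gave 12 windows, from 250 bases before to 50 bases after a start, for 8 of the 10 genes, all but CLPP and YME1L1. The windows were searched on both strands for the heat shock pairs GAANNTTC and TTCNNGAA, which bind heat shock factor as inverted units, for the C/EBP-ATF composite TGATGNAA and for the cAMP response element TGACGTCA. The HSPD1 window with matches is printed beside the HSPE1 window, which also holds the other HSPD1 start at 197500274, and the HSPA9 window, from a chaperone without a call. Capitals mark the matches, and each sequence is written along its gene's strand.
HSPD1, chr2:197499791-197500090, minus strand: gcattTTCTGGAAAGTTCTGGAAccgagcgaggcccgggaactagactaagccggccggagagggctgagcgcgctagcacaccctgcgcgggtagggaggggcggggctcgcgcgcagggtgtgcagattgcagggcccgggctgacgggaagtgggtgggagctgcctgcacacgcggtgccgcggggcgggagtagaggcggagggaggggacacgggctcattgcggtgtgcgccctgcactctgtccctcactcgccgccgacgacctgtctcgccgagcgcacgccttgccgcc
HSPE1, chr2:197500129-197500428, plus strand: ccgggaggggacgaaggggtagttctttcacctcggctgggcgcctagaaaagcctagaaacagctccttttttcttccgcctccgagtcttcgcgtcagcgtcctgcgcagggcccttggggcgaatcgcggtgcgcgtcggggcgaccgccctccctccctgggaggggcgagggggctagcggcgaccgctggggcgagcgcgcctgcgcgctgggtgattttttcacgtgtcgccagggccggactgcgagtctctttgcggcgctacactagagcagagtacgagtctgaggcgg
HSPA9, chr5:138575352-138575651, minus strand: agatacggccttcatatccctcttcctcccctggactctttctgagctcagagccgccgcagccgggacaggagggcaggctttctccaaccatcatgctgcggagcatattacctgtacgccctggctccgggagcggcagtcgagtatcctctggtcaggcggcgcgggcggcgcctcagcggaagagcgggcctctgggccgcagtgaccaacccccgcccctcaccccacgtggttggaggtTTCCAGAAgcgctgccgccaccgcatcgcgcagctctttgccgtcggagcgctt

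The HSPD1 window held 3 overlapping heat shock pairs within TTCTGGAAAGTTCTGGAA, at 197500068 to 197500085. That stretch begins at position -245 from the HSPD1 start at 197499840 and lies inside the deposited span of HSPE1. It also lies before the RefSeq HSPE1 start at 197500379, outside the HSPE1 window searched, which begins at 197500129. The HSPA9 window held a single TTCNNGAA pair across its start site at 138575401. TTCNNGAA occurs in 7.74% and GAANNTTC in 6.77% of 35116 human promoter windows of the same length, and either of them in 13.5%. The TRAP1 window held TGACGTCA, present in 1.85% of windows, at position -94 from its start. TGATGNAA, present in 3.62% of windows, was not found in the 12 windows. The windows of HSPE1, LONP1, CLPX, AFG3L2 and ATF5 and the other HSPD1 window held none of the letters searched. These are matches of letters only, and binding was not measured.

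HSPD1, the Hsp60 barrel, was the most abundant of the 10 transcripts. It stood at 1645, 1541 and 1568 CPM in the control wells and at 2128, 1618.5 and 2080.0 CPM in the DHA wells. DHA replicates 1 and 3 were above every control, and DHA replicate 2 lay within the control range, so the groups overlap. Its log2 fold change was 0.39 ± 0.11 (SE; edgeR adjusted p = 0.00819). Without DHA replicate 2 it was 0.55, with an edgeR adjusted p of 1.97e-06. It was called in all 16 alternative settings, between 0.28 and 0.55. HSPD1 has 6 pseudogene rows in the table, with 463 counts over the controls against 81661 for the gene.

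HSPE1, the Hsp10 lid, was counted at 5.23, 4.49 and 7.67 CPM in the control wells and at 14.4, 22.3 and 14.3 CPM in the DHA wells. Every DHA library was above every control, and DHA replicate 2 was highest, the reverse of its place for HSPD1. The log2 fold change was 1.65 ± 0.21 (SE; edgeR adjusted p = 4.0e-05), and it lay between 1.31 and 1.89 in the 16 alternative settings. A rise of at least 2-fold was called for 10.7% of all tested genes. HSPE1 is the only one of the 10 in the authors' deposited table of genes past a log2 fold change of 1, where its log2 fold change is 1.64 at an adjusted p of 4.31e-12.

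Part of the sequence of HSPE1 is shared with other genes, and so is part of HSPD1. Of 50-base windows in the annotated transcripts (GENCODE 29), 11.7% of those of HSPE1 and 13.2% of those of HSPD1 also occur in another gene. In their longest transcripts, of 950 and 2455 bases, the shares are 27.2% and 24.8%, and among HSPE1 transcripts they run from 1.84% to 39.2%. For the other 8 genes between 0.362% and 2.95% of windows are shared. The exons of HSPE1 share 192 bases with the read-through gene HSPE1-MOB4, which had 0 counts in every library. They share 281 bases with exons of HSPD1 on the opposite strand. HSPD1 had 169853 counts over all libraries, against 1089 for HSPE1. The table also lists 12 HSPE1 pseudogenes, which together had 29 counts in the controls and 41 in DHA, against 298 and 791 for the gene. The handling of reads from shared sequence, and any use of strand, were not given in the sources used here. The part of such reads in the HSPE1 level and in its rise was not tested.

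HSPA9, the import motor chaperone mortalin, was at 761, 736 and 739 CPM in the controls and at 709, 643 and 690.3 CPM in DHA. All DHA libraries were below all controls on this scale of library totals. With TMM scaling, which sets the bulk of genes at no change, the log2 fold change was -0.033 ± 0.073 (SE) and did not pass the test (edgeR adjusted p = 0.719). With the GC and length offset it was 0.21 at an edgeR adjusted p of 0.0286. Library totals alone gave -0.13 (edgeR adjusted p = 0.110). The sign of HSPA9 thus turned with the offset, not with the scaling, and without DHA replicate 2 it was 0.047, not called. In the deposited table it spans chr5:138554882-138575444 on the minus strand. 

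TRAP1, the mitochondrial Hsp90, was at 226, 218 and 262 CPM in the controls and at 225, 206 and 231 CPM in DHA. The groups overlap, and the log2 fold change was 0.0065 ± 0.087 (SE; edgeR adjusted p = 0.955). It was not called in any of the 16 alternative settings, between -0.15 and 0.093. Of its exon bases, 1531 overlap exons of DNASE1 on the opposite strand, a gene with 2410 counts over all libraries. In the deposited table it spans chr16:3651639-3717597 on the minus strand.

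LONP1, the main ATP-driven protease of the matrix, was at 225, 215 and 226 CPM in the controls and at 269, 305 and 264 CPM in DHA. Every DHA library was above every control, with DHA replicate 2 highest. The log2 fold change was 0.43 ± 0.07 (SE; edgeR adjusted p = 0.000273), and leaving out any library kept it between 0.39 and 0.47. With the GC and length offset it was 0.073 ± 0.063 (SE), and the call ended at an edgeR adjusted p of 0.344. In the deposited table it spans chr19:5691834-5720572 on the minus strand.

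The subunits of the ClpXP protease differed in their calls without the GC and length offset, and both were called lower with it. CLPX, the unfoldase that feeds substrates to CLPP, was at 75.6, 77.1 and 74.0 CPM in the controls and at 53.5, 47.0 and 54.7 CPM in DHA. All DHA libraries were below all controls, and the log2 fold change was -0.45 ± 0.08 (SE; edgeR adjusted p = 0.000537). It was called lower in all 16 alternative settings, and was smallest with the offset, at -0.23 with an edgeR adjusted p of 0.0183. In the deposited table it spans chr15:65148219-65185342 on the minus strand.

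CLPP, the peptidase chamber, was at 92.8, 80.5 and 93.0 CPM in the controls and at 86.4, 81.1 and 91.6 CPM in DHA. Replicate 2 was lowest in both groups, and the groups overlap. The log2 fold change was 0.056 ± 0.084 (SE; edgeR adjusted p = 0.585). With the GC and length offset CLPP was called lower, at -0.58 with an edgeR adjusted p of 0.000352. CLPP has the highest GC content of the 10 genes and CLPX the second lowest. CLPP spans chr19:6361452-6368908 on the plus strand.

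YME1L1, the inner membrane protease that faces the intermembrane space, was at 221, 215 and 219 CPM in the controls and at 165, 162 and 161 CPM in DHA. All DHA libraries were below all controls, with little spread within either group, and the log2 fold change was -0.33 ± 0.06 (SE; edgeR adjusted p = 0.000813). Leaving out any library kept it between -0.36 and -0.28. With the GC and length offset it was -0.020 ± 0.065 (SE), and the call ended at an edgeR adjusted p of 0.815. YME1L1 spans chr10:27110112-27155266 on the minus strand, and 443 of its exon bases overlap MASTL on the opposite strand. MASTL had 4563 counts over all libraries.

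AFG3L2, the inner membrane protease that faces the matrix, was at 65.7, 58.7 and 62.7 CPM in the controls and at 53.7, 67.2 and 49.96 CPM in DHA. DHA replicates 1 and 3 were below every control and DHA replicate 2 above every control. The log2 fold change was -0.035 ± 0.099 (SE; edgeR adjusted p = 0.778), and -0.13 without DHA replicate 2 (edgeR adjusted p = 0.151). It was not called in any of the 16 alternative settings. Of its exon bases, 837 overlap exons of TUBB6 on the opposite strand, a gene with 17209 counts over all libraries. AFG3L2 spans chr18:12328944-12377314 on the minus strand.

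ATF5, the transcription factor of the response, was at 28.4, 29.04 and 30.3 CPM in the controls and at 29.98, 24.8 and 28.6 CPM in DHA. The groups overlap, with a log2 fold change of 0.024 ± 0.097 (SE; edgeR adjusted p = 0.845). With the GC and length offset it was called lower, at -0.42 with an edgeR adjusted p of 0.00484. ATF5 is known to be controlled in part by translation through upstream reading frames, which transcript counts do not show. Of its exon bases, 626 overlap exons of NUP62 on the opposite strand, a gene with 12310 counts over all libraries. ATF5 spans chr19:49928702-49933935 on the plus strand.

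Levels were compared between genes as CPM per kb of annotated exon. In the controls HSPD1 stood at 373 ± 12.7 (SD, n = 3) CPM per kb and HSPA9 at 90.3 ± 1.62, followed by TRAP1 at 45.0 ± 4.44 and LONP1 at 43.7 ± 1.15, which overlap. Next came CLPP at 39.0 ± 3.15, YME1L1 at 29.8 ± 0.444 and CLPX at 13.8 ± 0.282. ATF5 at 9.89 ± 0.329 and AFG3L2 at 9.42 ± 0.529 overlap as well. HSPE1 was lowest as counted, at 2.93 ± 0.842, with the shared sequence and overlaps given above. The ratio of HSPD1 to HSPE1 per kb was 147, 160 and 95.1 in the controls. Whether reads of HSPE1 were lost in counting was not tested. In DHA, LONP1 at 54.9 ± 4.42 CPM per kb stood above TRAP1 at 42.3 ± 2.48, with no overlap, and HSPE1 at 8.62 ± 2.32 overlapped AFG3L2 at 8.60 ± 1.37. Together the 10 genes took 0.318% to 0.335% of counts in the controls and 0.318% to 0.373% in DHA, and HSPD1 alone made up 47.8% to 49.2% and 50.9% to 57.0% of that.

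**Figure D3:**
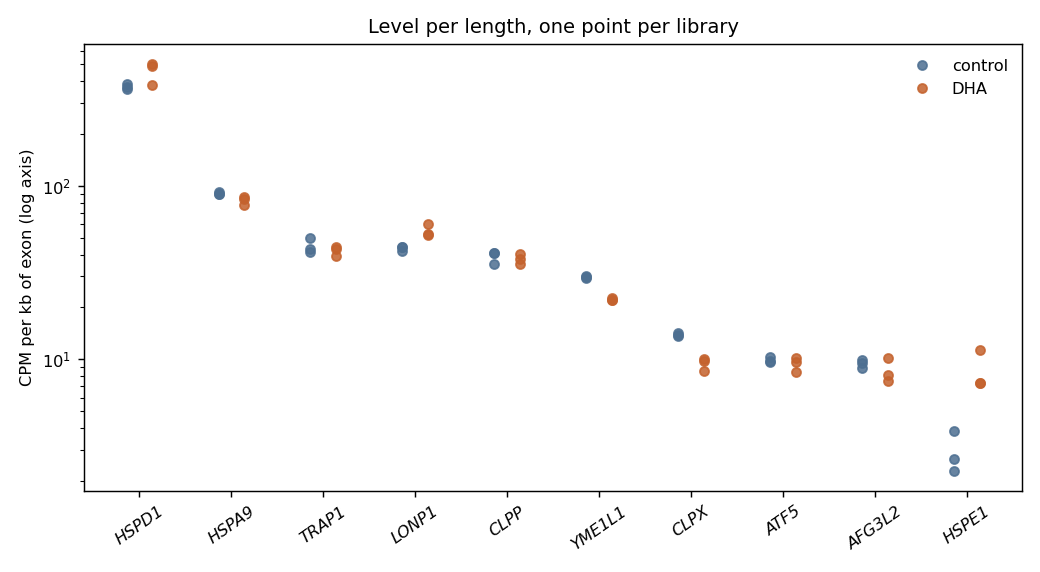
CPM per kb of exon for each gene on a log axis, with a point per library, controls in blue and DHA in orange, ordered by the control mean. HSPD1 is highest at a control mean of 373 CPM per kb and HSPE1 lowest at 2.93, and LONP1 passes TRAP1 in the DHA libraries.

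Ratios between genes within a library do not depend on how libraries are scaled. The ratio of HSPD1 to HSPA9 per kb was 4.20, 4.07 and 4.13 in the controls and 5.83, 4.89 and 5.86 in DHA. Here DHA replicate 2 was also above every control, although its HSPD1 level was not. The ratio of LONP1 to YME1L1 was 1.47, 1.45 and 1.49 in the controls and 2.35, 2.72 and 2.36 in DHA. The ratio of CLPP to CLPX was 2.94, 2.50 and 3.02 in the controls and 3.87, 4.14 and 4.01 in DHA. These groups do not overlap, but neither did those of 65.5% of single tested genes in CPM. The share over all gene pairs was not computed. The ratios are given as a description, with no test. The genes of the last 2 ratios differ widely in GC content, and with the offset the log2 fold changes were 0.073 for LONP1 and -0.020 for YME1L1, and -0.58 for CLPP and -0.23 for CLPX. The order of CLPP and CLPX thus reverses with the offset. HSPD1 and HSPA9 are close in GC content, at 44.2% and 43.5%, and their log2 fold changes with the offset were 0.44 and 0.21.

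**Figure D4:**
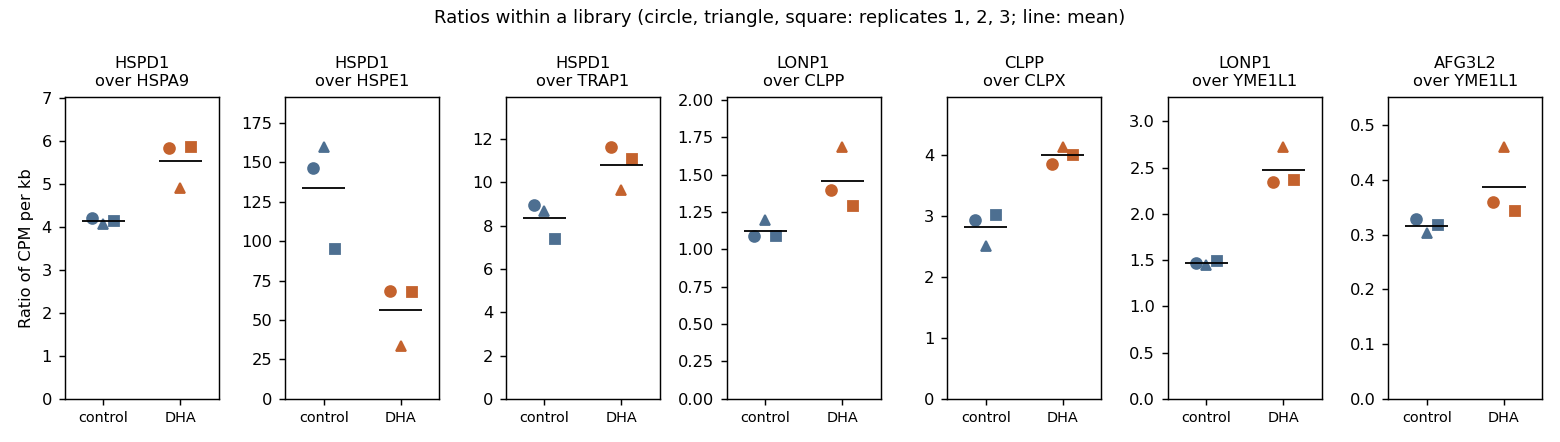
Ratios of CPM per kb between pairs of the 10 genes, by library, with controls in blue, DHA in orange, replicates 1 to 3 as circle, triangle and square, and the mean as a line. For all pairs shown, the 3 DHA values lie outside the control values. In CPM, groups also did not overlap for 65.5% of single tested genes. HSPD1 over HSPE1 is lower in DHA and the others are higher, as counted; with the GC and length offset the log2 fold change was -0.58 for CLPP and -0.23 for CLPX.

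Other genes of mitochondrial protein import and quality control were listed beside the 10. Of 15 genes of the import channel and motor, 4 rose, 5 fell and 6 missed the threshold, with a median log2 fold change of -0.092. These counts are near the shares over all tested genes, of which 29.6% rose and 30.1% fell. The motor anchor TIMM44 rose by 0.69 ± 0.08 (log2, SE), and the channel subunits TOMM40 and TIMM17B rose by 0.48 ± 0.09 each. The receptors TOMM70 and TOMM20 fell by 0.72 ± 0.07 and fell by 0.56 ± 0.07 on the log2 scale, and the motor regulator PAM16 fell by 1.02 ± 0.24 from a mean of 5.26 CPM. TIMM21 was at -0.45 ± 0.13, also called. TIMM50 was called at 0.24 ± 0.10, a call held in 4 of 16 alternative settings and lost without DHA replicate 2 (0.15) and without any 1 of the controls (0.17 to 0.27). DNAJC15 was called at -0.26 ± 0.10, a call held in 6 of 16, and lost without DHA replicate 2 (-0.17), DHA replicate 3 (-0.24), control replicate 1 (-0.26) or control replicate 2 (-0.23). TOMM40, TIMM17B, TIMM50, TIMM21 and DNAJC15 lost their calls with the GC and length offset, while TOMM22 and TIMM23 were called lower. That left 1 gene higher and 5 lower, against 23.7% and 32.5% of all tested genes with the offset. GRPEL1 and GRPEL2, which exchange the nucleotide on mortalin, were at -0.060 ± 0.10 and -0.21 ± 0.14 and did not pass.

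Of 9 co-chaperones and scaffolds, 2 were higher, 2 lower and 5 uncalled, against 29.6% and 30.1% of all tested genes, at a median of 0.12. With the offset 1 was higher and 4 lower, against 23.7% and 32.5% of all tested genes. The median turned to -0.23, beside -0.074 for all tested genes with the offset. BCS1L, an assembly factor of respiratory complex III, rose by 0.63 ± 0.09 (log2, SE), and STOML2, an inner membrane scaffold of YME1L1, rose by 0.33 ± 0.08. The disaggregase CLPB fell by 0.63 ± 0.08 and DNAJA3, the J-protein of mortalin, fell by 0.37 ± 0.08. The call of STOML2 ended with the offset. The prohibitins PHB and PHB2, which ring the inner membrane proteases, were at -0.017 ± 0.070 and 0.11 ± 0.07 and did not pass, and both were called lower with the offset, at -0.23 and -0.31. Without DHA replicate 2, PHB2 was called higher instead, at 0.16.

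Of 12 other proteases and peptidases, 3 were higher, 2 lower and 7 uncalled, against 29.6% and 30.1% of all tested genes, at a median of 0.16. With the offset 6 were higher and 2 lower, against 23.7% and 32.5% of all tested genes. The median was then 0.14, beside -0.074 for all tested genes with the offset. SPG7, the partner subunit of AFG3L2, rose by 0.44 ± 0.07 (log2, SE), a value of 0.44 with the offset too. PMPCA, which helps remove import signals, rose by 0.27 ± 0.08, a call lost without control replicate 2 (0.18), and IMMP2L rose by 0.73 ± 0.20. The peptidases XPNPEP3 and MIPEP were lower, at -0.64 ± 0.08 and -0.46 ± 0.14, and the call of MIPEP was lost without control replicate 1 and without DHA replicate 3, which leaves 1 lower gene. OMA1, the stress-activated protease that works beside YME1L1, was at 0.30 ± 0.13 and did not pass, but with the offset it was called, at 0.33 with an edgeR adjusted p of 0.0406. PITRM1 and IMMP1L likewise gained calls as higher with the offset.

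Among 8 substrates and partners of these proteases, 2 were higher, 2 lower and 4 uncalled, against 29.6% and 30.1% of all tested genes, at a median of 0.079. With the offset 0 were higher and 3 lower, against 23.7% and 32.5% of all tested genes. The median turned to -0.16, beside -0.074 for all tested genes with the offset. OPA1, a fusion protein cut by YME1L1 and OMA1, fell by 0.61 ± 0.08 (log2, SE) and TFAM, a LONP1 substrate that packs mitochondrial DNA, fell by 0.57 ± 0.08. SMDT1, a calcium channel subunit, rose by 0.74 ± 0.21 and ALAS1, whose heme synthesis enzyme is a CLPX client, by 0.26 ± 0.09. With the offset both of these calls ended. The call of ALAS1 was also lost without control replicate 2 (0.16), DHA replicate 1 (0.25) or DHA replicate 3 (0.22), which left 1 gene higher.

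Genes of the relay that carries mitochondrial stress to the nucleus included the largest rises among the genes named here. Of 13 listed, 6 were higher, 4 lower and 3 uncalled, against 29.6% and 30.1% of all tested genes, at a median of 0.42. With the offset 4 were higher and 4 lower, against 23.7% and 32.5% of all tested genes. The median turned to -0.026, beside -0.074 for all tested genes with the offset. The transcription factors ATF3, DDIT3 (CHOP) and CEBPB rose by 4.80 ± 0.23, 4.16 ± 0.29 and 1.97 ± 0.31 (log2, SE), the endoplasmic reticulum kinase EIF2AK3 (PERK) by 0.59 ± 0.10, and HSF1 and ATF4 by 0.55 ± 0.07 and 0.54 ± 0.11. The calls of HSF1 and ATF4 ended with the offset. The other eIF2alpha kinases were lower: EIF2AK1 (HRI), which reports mitochondrial stress, at -0.50 ± 0.07, EIF2AK4 (GCN2) at -0.67 ± 0.07 and EIF2AK2 (PKR) at -1.13 ± 0.09. FOXO3 was at -0.24 ± 0.08, a call held in 9 of 16 alternative settings. That call was lost with any library but control replicate 3 left out (-0.25 to -0.17). It also ended with the offset, at -0.15, while SIRT3 was called lower with it. SIRT3 was at -0.13 ± 0.09 and not called without the offset, and at -0.35 with it. DELE1, the messenger from mitochondria to EIF2AK1, listed in the table as KIAA0141, was at -0.069 ± 0.069 and did not pass.

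Relatives of the 10 genes in other compartments were also listed. Of 10, 7 were higher, 1 lower and 2 uncalled, against 29.6% and 30.1% of all tested genes, at a median of 0.33. With the offset 6 were higher and 1 lower, against 23.7% and 32.5% of all tested genes. The median was then 0.34, beside -0.074 for all tested genes with the offset. The cytosolic Hsp90 genes HSP90AA1 and HSP90AB1 are among the 7, at 0.25 ± 0.09 and 0.29 ± 0.09, and held their calls in 8 and 7 of 16 alternative settings. HSP90AA1 lost its call with any library but DHA replicate 2 left out (0.20 to 0.26), and HSP90AB1 without control replicates 2 or 3 or DHA replicates 1 or 3 (0.24 to 0.30), so that 5 to 7 were higher with libraries left out. Beside mortalin, the cytosolic Hsp70 genes HSPA1A, HSPA1B and HSPA8 rose by 4.09 ± 0.17, 3.87 ± 0.28 and 1.02 ± 0.13 (log2, SE). HSPA5, the Hsp70 of the endoplasmic reticulum, rose by 0.37 ± 0.07, a call held in all 16 alternative settings, and was at 0.34 with the offset. HSPA1A and HSPA1B are near-identical, so the division of reads between them is uncertain. TCP1, a subunit of the cytosolic chaperonin, rose by 0.51 ± 0.08, beside 0.39 ± 0.11 for HSPD1. The 2 uncalled genes were CCT2, another subunit of that chaperonin, at -0.029 ± 0.076, and HSP90B1 at -0.19 ± 0.08. LONP2, the peroxisomal Lon protease, fell by 0.72 ± 0.08, while LONP1 was at 0.43 ± 0.07. Differences between genes were not tested.

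**Figure D5:**
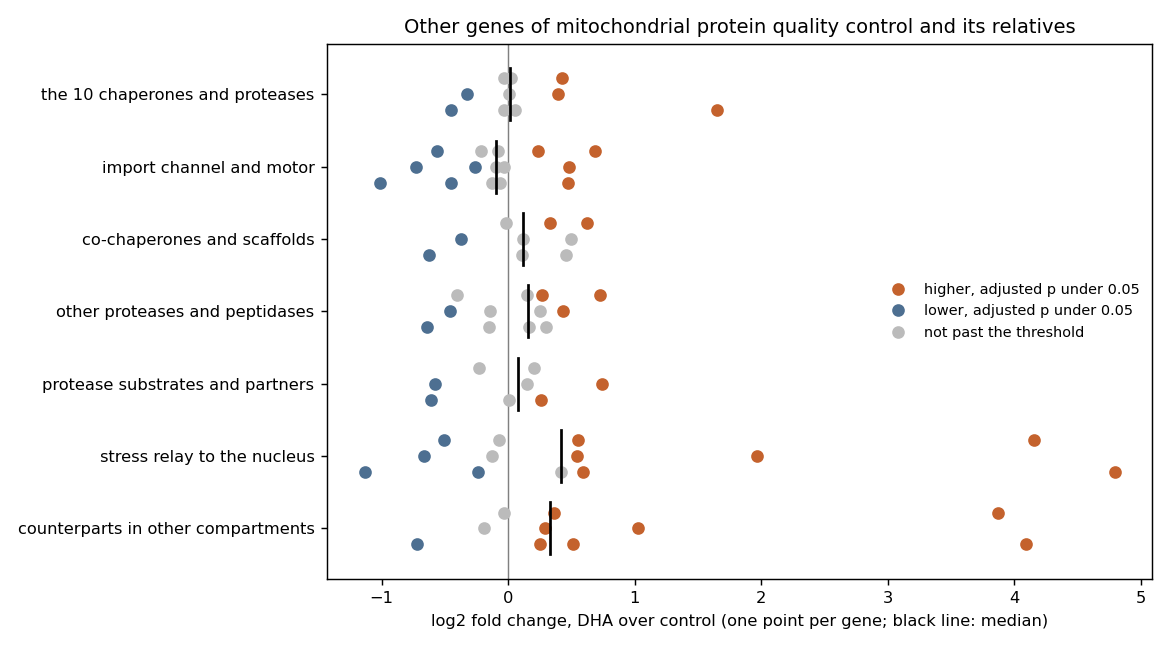
The log2 fold change of DHA over control (horizontal axis) for the 10 genes and for each list of other genes, with a point per gene, orange if higher, blue if lower and grey if not past an adjusted p of 0.05, and the median as a black line. The 10 genes have a median of 0.015 and run from -0.45 for CLPX to 1.65 for HSPE1. The largest rises are ATF3, DDIT3, HSPA1A and HSPA1B in the lists at the bottom.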

How the data were processed

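RNA was measured in 6 libraries of SW480 cells, grouped by their treatment label. Per the submitters' processing notes, reads were mapped with HISAT2 and compared with DESeq2 1.18.1. The counter, annotation, build and any strand setting were not given in the sources used here. The deposited table holds the authors' raw read counts of 40846 genes. Genes that share a name (1696 genes, 143 names) carry identical counts, so 1 row per name was kept, and 32 lines of annotation text were left out. Of the kept genes, 39167 matched GENCODE 29 (GRCh38), 96.9% of them at identical coordinates and strand, so exon lengths, overlaps, 50-base windows and the GC content of the longest transcript come from that release. Promoters come from RefSeq (GRCh38.p14). The authors' deposited comparison table gives their log2 fold changes and p-values, and only genes past its limits. A deposited table named as FPKM was not used.

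Counts were tested in R 4.3.3 with edgeR 4.0.16 (filterByExpr, TMM, glmQLFit and glmQLFTest), and with limma 3.58.1 and DESeq2 1.42.0 as alternatives. Tables and figures used Python 3.11.15, numpy 2.4.6, pandas 2.3.3 and matplotlib 3.10.9. Standard errors come from the F statistic, and CPM use library totals. The 10 genes and all lists were chosen with earlier results of these data known. All 10 genes are named, and of each list up to 4 called genes per direction with the smallest adjusted p, besides relatives chosen after their values were seen. The offset is a spline of GC content and log length per library, for 99.7% of tested genes. Other alternatives were size factors, library totals, filters, pseudocounts of 1 and 0.1 for limma, a replicate block and leaving out each library.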

Additional observations from a re-analysis of the deposited data

How the results depend on the processing

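For the 10 genes, 3 were called higher and 2 lower with every library left out in turn (3 to 3 and 2 to 2), and HSPD1, HSPE1 and CLPX kept their calls in all 16 alternative settings. LONP1 and YME1L1 kept theirs in 14 of 16 and lost them with the GC and length offset, with or without the replicate block. With the offset, and with the offset and replicate block together, HSPA9 was at 0.207 and 0.207, CLPP at -0.58 and -0.59, ATF5 at -0.42 and -0.43, PHB2 at -0.31 and -0.31 and PRELID1 at -0.30 and -0.29, all past the threshold and opposite in sign to the main values. DNAJC15 at 0.11 and 0.11, STOML2 at -0.12 and -0.12 and ALAS1 at -0.035 and -0.038 also turned, without passing it.

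Counts over the lists moved by more than 1.5 times as follows. With the offset, and with the offset and replicate block, higher import genes numbered 1 and 1, higher co-chaperones 1 and 1, lower co-chaperones 4 and 4, and higher protease substrates 0 and 0. With the offset alone 6 other proteases were higher, and with offset and block 4 substrates were lower. Higher substrates numbered 1 with library totals, with no low-count filter and with limma at either pseudocount, and 1 to 3 with libraries left out. Lower counterparts in other compartments numbered 2 with library totals, DESeq2, no low-count filter and limma at either pseudocount. Lower proteases numbered 1 to 2 with libraries left out. The cause was not tested. The summary shift over all genes, against TMM, was -0.096 with library totals and -0.076 with the offset. With the offset single genes moved either way: CLPP went from 0.056 to -0.58 and YME1L1 from -0.33 to -0.020. Over all genes, limma at a pseudocount of 1 called 3400 higher and 5469 lower, and at 0.1, 3389 and 5451.

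Same-numbered control and DHA libraries did not deviate together (correlations 0.032, -0.13 and -0.099), and not every library correlated best with its own number. The samples were therefore treated as unpaired, though low correlations cannot show that same-numbered wells were handled apart. With the replicate block, 4361 genes were higher and 4545 lower, against 4674 and 4757 without it, and 3 and 2 of the 10 genes. Depth limits HSPE1 most, at 71 to 372 counts per library.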

Other observations

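The DHA library of replicate 2 took opposite places among the 10 genes. It had the highest CPM of all 6 libraries for HSPE1 at 22.3, LONP1 at 305 and AFG3L2 at 67.2, and the lowest for HSPA9 at 643, TRAP1 at 206, CLPX at 47.0 and ATF5 at 24.8. Without it, the log2 fold changes were 1.45 for HSPE1, 0.40 for LONP1 and -0.34 for CLPX, all still called by edgeR, and 0.14 for ATF5, which was not called (edgeR adjusted p = 0.157).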
